A study of Mus musculus with 16 samples.

Results

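The TRBJ2 cluster is the second of the 2 groups of joining (J) gene segments of the mouse T cell receptor beta locus, and its 6 functional segments TRBJ2-1, TRBJ2-2, TRBJ2-3, TRBJ2-4, TRBJ2-5 and TRBJ2-7 were described here in CD44-high CD4+ T cells of the spleen. Members were the TRB contigs that carried 1 of these 6 J labels in cells with exactly 1 TRB chain. They came to 46696 of 66438 such cells and to 33475 of 48194 TRB clonotypes. A TRB clonotype was defined within a library by its V label, J label and CDR3 nucleotides. By segment, there were 6582 cells and 4880 clonotypes with TRBJ2-1, 4321 and 3184 with TRBJ2-2, 6476 and 4796 with TRBJ2-3, 7423 and 4855 with TRBJ2-4, 9206 and 6796 with TRBJ2-5, and 12688 and 8964 with TRBJ2-7. The rule that picks the segments uses their labels and no measured value, but the cluster, and TRBJ2-4 with TRBV1 within it, were taken up with earlier results of these data known.

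All mice carried a Vk*Myc myeloma graft (day 0), received 50 µg of an NK1.1-depleting antibody on days -2 and 5, and had their spleens taken on day 18. The study crossed an agonistic anti-4-1BB antibody (also called aCD137) with control immunoglobulin (IgG), each at 20 µg on days 10, 13 and 16, and mice with a floxed gene for the transcription factor Eomes and a CD4-linked Cre (KO) with controls (WT). The 4 groups were KO with anti-4-1BB, WT with anti-4-1BB, KO with IgG and WT with IgG, with 1 receptor library per group in each of 2 experiments, which the labels give as batches. The WT genotype was Eomes-IRES-GFP in both experiments. The KO genotype was Eomesfl/fl-ERT2CD4Cre in experiment 2 and Eomesfl/fl-CD4Cre in experiment 1 (ERT2 marks a Cre that tamoxifen activates), and tamoxifen was given to all mice of experiment 2 and to none of experiment 1. The form of Cre, tamoxifen and the experiment therefore cannot be told apart. The labels do not give the number of mice behind a library. The receptor tables hold no marker genes, so the cell type and the loss of Eomes were not checked here.

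A TRB chain is assembled in the thymus from a V, a D and a J segment, and the bases at the joins are trimmed and added to at random. The locus holds 2 D-J-C units in a row: TRBD1 with the TRBJ1 segments and TRBC1, then TRBD2 with the TRBJ2 segments and TRBC2. TRBD1 can reach the J segments of either unit by deletion, whereas joining of TRBD2 to a TRBJ1 segment would run against the order of the locus. The J segment supplies the end of CDR3, the loop that lies over the peptide in the MHC groove, up to the conserved phenylalanine.

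All 6 members lie in numerical order along chromosome 6 within a short stretch between TRBD2 and TRBC2 (GRCm38.p6, RefSeq). TRBD2 is annotated at chr6:41542163-41542176. TRBJ2-1 (ENSMUSG00000076492.1) lies at chr6:41542754-41542803, 578 bases past the end of TRBD2, and TRBJ2-2 (ENSMUSG00000076493.1) at chr6:41542957-41543007. TRBJ2-3 (ENSMUSG00000076494.1) lies at chr6:41543223-41543271, TRBJ2-4 (ENSMUSG00000076495.1) at chr6:41543362-41543410 and TRBJ2-5 (ENSMUSG00000076496.1) at chr6:41543453-41543501. TRBJ2-6 is annotated as a pseudogene, and TRBJ2-7 (ENSMUSG00000076497.1) lies at chr6:41543810-41543856. TRBC2 follows at chr6:41546730-41548181.

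The coding ends of the 6 segments are shown because they are the part of CDR3 that each segment supplies, and the bases kept from them are counted beside CDR3 length. Each was rebuilt as the commonest base at each position over the deposited contigs, to the annotated length. Capitals mark the part that can lie in CDR3, and lower case the framework bases that follow:
TRBJ2-1: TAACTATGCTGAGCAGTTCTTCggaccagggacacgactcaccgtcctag
TRBJ2-2: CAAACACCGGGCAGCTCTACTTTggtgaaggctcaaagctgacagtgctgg
TRBJ2-3: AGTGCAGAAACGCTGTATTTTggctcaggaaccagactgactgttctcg
TRBJ2-4: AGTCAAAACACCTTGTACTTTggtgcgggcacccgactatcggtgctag
TRBJ2-5: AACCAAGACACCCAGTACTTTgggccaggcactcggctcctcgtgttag
TRBJ2-7: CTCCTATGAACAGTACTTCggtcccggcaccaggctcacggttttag
The part in CDR3 is 23 bases long in TRBJ2-2, 22 in TRBJ2-1, 21 in TRBJ2-3, TRBJ2-4 and TRBJ2-5, and 19 in TRBJ2-7.

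A CDR3 found in as many libraries as any other of its segment is shown for each, because such sequences are what the libraries had in common. It was the only one for TRBJ2-2 and TRBJ2-7. It was 1 of 4 found in equally many libraries for TRBJ2-4, 1 of 5 for TRBJ2-5 and 1 of 7 each for TRBJ2-1 and TRBJ2-3, and among these the one with most cells was taken. Capitals mark the bases kept from the J segment:
TRBJ2-1 with TRBV3: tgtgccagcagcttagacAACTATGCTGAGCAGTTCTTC
TRBJ2-2 with TRBV20: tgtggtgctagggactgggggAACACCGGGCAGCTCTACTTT
TRBJ2-3 with TRBV31: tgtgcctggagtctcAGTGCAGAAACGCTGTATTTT
TRBJ2-4 with TRBV1: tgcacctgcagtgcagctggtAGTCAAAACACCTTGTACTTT
TRBJ2-5 with TRBV12-2+TRBV13-2: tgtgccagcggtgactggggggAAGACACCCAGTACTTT
TRBJ2-7 with TRBV20: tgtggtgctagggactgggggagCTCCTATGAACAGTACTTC
The TRBJ2-7 sequence was in 8 of 8 libraries, in 16 cells, and the 15 of these cells with a TRA chain held 14 different ones. The TRBJ2-4 sequence was in 4 libraries and 44 cells, of which 21 were in KO anti-4-1BB cells and 21 in WT anti-4-1BB cells of experiment 2. The TRBJ2-5 and TRBJ2-2 sequences were each in 4 libraries, and those of TRBJ2-1 and TRBJ2-3 each in 3. The TRBJ2-2 and TRBJ2-7 sequences both carry TRBV20 and begin with the same run of bases.

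Few clonotypes were shared between libraries by nucleotides, and more by amino acids. The share of clonotypes whose nucleotides were also found in another library was highest for TRBJ2-7, at 4.44% ± 0.743, followed by TRBJ2-5 at 3.91% ± 0.892 and TRBJ2-4 at 3.87% ± 0.997, and lowest for TRBJ2-3, at 2.53% ± 0.620 (SD, n = 8 libraries). Without TRBV1 the TRBJ2-4 share was 3.15% ± 0.723, and with TRBV1 it was 11.4% ± 5.06. Counted by the same V and J labels and CDR3 amino acids, the shared part was 9.06% ± 1.63 for TRBJ2-1, the lowest, 14.2% ± 2.44 for TRBJ2-4 and 15.2% ± 1.65 for TRBJ2-7, the highest of the 6. It was 29.0% ± 12.9 for TRBJ2-4 with TRBV1 and 12.6% ± 1.33 without it. Of 71086 cell barcodes, 3198 occurred in more than 1 library, and none of these carried the same TRB CDR3 in 2 libraries.

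The libraries held 80551 to 445027 TCR UMIs and 4090 to 12669 cells with 1 TRB chain. The median UMI count of a TRBJ2 contig was 16, 14, 16 and 17 in anti-4-1BB libraries (KO of experiments 2 and 1, then WT of experiments 2 and 1, an order kept below) and 12, 10, 12 and 11 in IgG libraries. Depth per contig therefore moved with the treatment, and its part in the results was not tested beyond the minimum of 3 UMIs described with the processing alternatives. The labels could be checked against the locus: 46263 TRBJ2 cells had a constant-region label, all 46263 were TRBC2, and no TRBJ1 cell was labelled TRBC2.

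TRBJ2 segments made up 69.6% ± 1.25 of TRB clonotypes (lowest 67.9%, median 69.9%, highest 71.6%) and 70.4% ± 2.05 of cells (SD, n = 8 libraries), the rest being the 6 TRBJ1 labels. TRBJ2-7, the segment farthest from TRBD2, was the most used, at 18.6% ± 0.620 of clonotypes. TRBJ2-5 followed at 14.1% ± 0.643. TRBJ2-1 (10.2% ± 0.366), TRBJ2-4 (10.0% ± 0.845) and TRBJ2-3 (9.99% ± 0.489) came next, and TRBJ2-2 was the least used member, at 6.66% ± 0.292. TRBJ2-7 was above TRBJ2-5, and TRBJ2-5 above TRBJ2-1, in 8 of 8 libraries. The next 3 did not differ beyond their spread, since TRBJ2-1 exceeded TRBJ2-4 in 5 of 8 libraries and TRBJ2-4 exceeded TRBJ2-3 in 4 of 8. TRBJ1-1, at 9.08% ± 0.731, lay between TRBJ2-3 and TRBJ2-2 and was the one TRBJ1 label above any member.

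**Figure D1:**
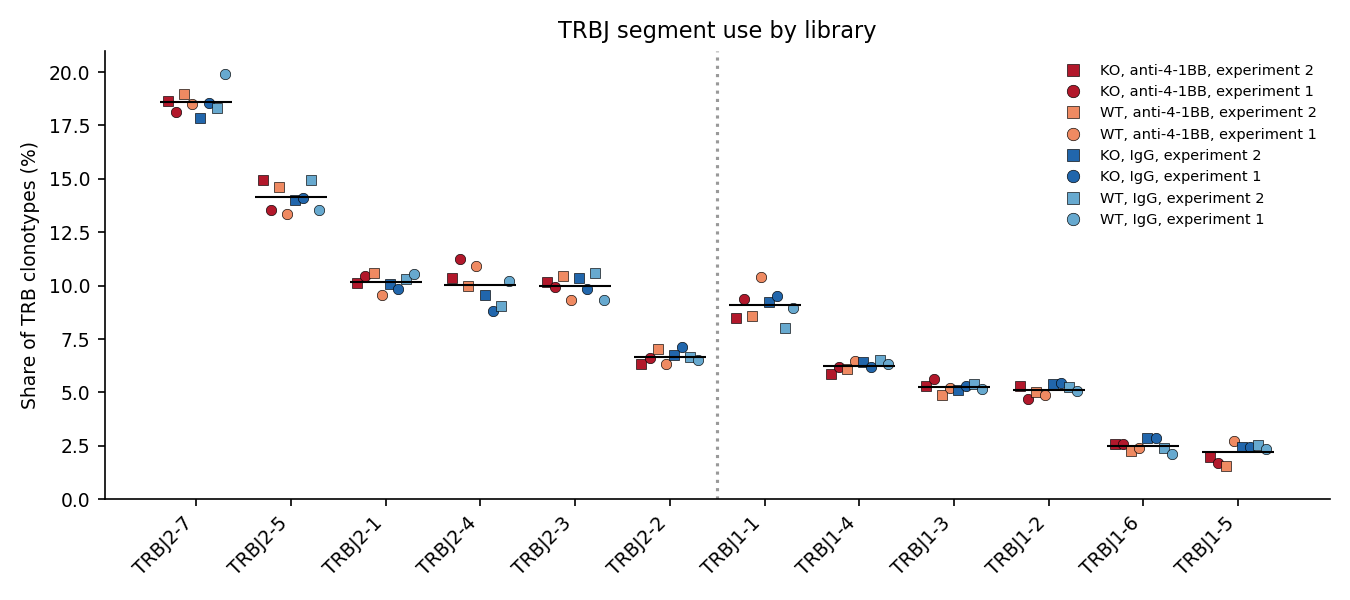
Share of TRB clonotypes (%) carrying each TRBJ segment, 1 point per library, with the mean of 8 libraries as a line; TRBJ2 segments stand left of the dotted line and TRBJ1 segments right of it. TRBJ2-7 sat between 17.9% and 19.9% and TRBJ2-5 between 13.3% and 14.95%, above all other segments in each library.

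By the measure of likeness used here, the root mean square difference of centred log2 clonotype shares over 8 libraries, the segment most like TRBJ2-7 among 147 compared was TRAJ17 (0.0465). For TRBJ2-2 it was TRBV16 (0.0607), for TRBJ2-5 and TRBJ2-3 TRBJ1-2 (0.0633 and 0.0773), for TRBJ2-1 TRBJ1-4 (0.0746) and for TRBJ2-4 TRAJ22 (0.108). The median over the compared segments was 0.268 to 0.292. For each member but TRBJ2-1 and TRBJ2-3, this nearest distance was below the SD of its own log2 share over the libraries. TRBJ2-4 varied most between libraries of the 6, with an SD of 0.122 on the log2 scale, against 0.0473 for TRBJ2-7.

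Anti-4-1BB was set against IgG to ask whether the antibody shifted J use. Counted as clonotypes, TRBJ2-4 made up 10.3%, 11.2%, 9.97% and 10.9% in anti-4-1BB libraries, against 9.55%, 8.82%, 9.04% and 10.2% in IgG libraries. It was higher with anti-4-1BB in each of the 4 pairs of the same genotype and experiment, although the 2 ranges overlapped. The log2 difference was 0.17 ± 0.058 (SE). It did not pass edgeR's quasi-likelihood test after Benjamini-Hochberg adjustment over all 153 V and J segments of both chains (adjusted p = 0.774). The other 5 members differed by -0.05 to -0.00 on the log2 scale (adjusted p = 0.968 to 0.986). No member was called, and 1 had an unadjusted p under 0.05. Over all segments, 2 of 153 (1.31%) were called, both TRA segments. DESeq2 called none of 153 segments and gave 1 member an unadjusted p under 0.05. The median absolute log2 difference was 0.0147 over the 6 members and 0.144 over all 153 segments. The TRBJ1 segments differed by -0.24 to 0.05. The part that the number of clonotypes per segment plays in these values was not tested.

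Counting cells in place of clonotypes changed the result for TRBJ2-4 alone. Its share of cells was 14.6%, 10.8%, 13.3% and 10.6% in anti-4-1BB libraries and 10.1%, 7.99%, 9.55% and 10.3% in IgG libraries. The 2 anti-4-1BB libraries of experiment 2 were the highest of the 8. The log2 difference was 0.38 ± 0.091 (SE; edgeR adjusted p = 0.0144), with 2 of 155 segments (1.29%) called, 1 of them higher (0.645%). The call did not hold when KO anti-4-1BB of experiment 2 was left out (0.25, adjusted p = 0.617) or WT anti-4-1BB of experiment 2 (0.29, adjusted p = 0.957). It was also lost without WT anti-4-1BB of experiment 1 (adjusted p = 0.0869), KO IgG of experiment 1 (0.338), WT IgG of experiment 2 (0.294) or WT IgG of experiment 1 (0.0574), and with DESeq2 (adjusted p = 0.160). Cells of 1 clonotype are not independent, and the spread of the cell counts carries the size of a few clonotypes.

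The share of TRBJ2-4 without TRBV1 was 9.52%, 11.04%, 9.44% and 10.8% of the clonotypes without TRBV1 in anti-4-1BB libraries, against 9.57%, 8.78%, 8.85% and 10.1% in IgG libraries. The log2 difference was then 0.12 ± 0.070 (edgeR adjusted p = 0.971), higher in 3 of 4 pairs. Counted as cells without TRBV1 it was 0.16 ± 0.093 (adjusted p = 0.991), with 10.7% on average in anti-4-1BB libraries and 9.47% in IgG libraries. Once TRBV1 was set aside, the cell-based share was thus still higher in 4 of 4 pairs but no longer called.

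**Figure D2:**
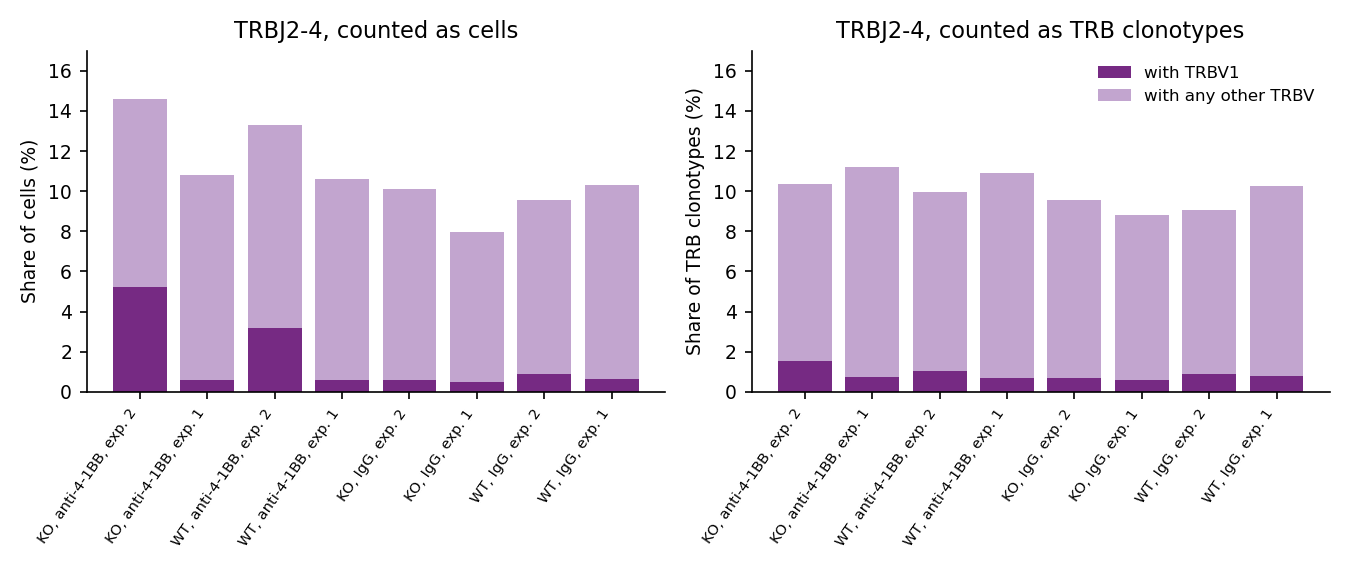
TRBJ2-4 as a share (%) of each library's cells (left) and of its TRB clonotypes (right), with the part that carries TRBV1 in dark purple and the part with any other TRBV in light purple. The dark part stands out in the KO and WT anti-4-1BB libraries of experiment 2, at 5.21% and 3.19% of cells, against 0.496% to 0.905% in the other 6.

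TRBJ2-4 with TRBV1 was held by 526, 25, 289 and 77 cells in anti-4-1BB libraries and by 60, 22, 75 and 49 cells in IgG libraries. That was 35.7%, 5.66%, 24.0% and 5.73% of TRBJ2-4 cells with anti-4-1BB, against 5.87%, 6.21%, 9.47% and 6.19% with IgG. KO and WT anti-4-1BB of experiment 2 stood apart from the other 6 libraries, and those of experiment 1 lay just below the IgG range. In clonotypes the pair made up 14.7%, 6.48%, 10.7% and 6.16% of TRBJ2-4 clonotypes with anti-4-1BB, against 7.15%, 6.64%, 9.57% and 7.57% with IgG. These values are a description, since the pair was chosen with its pattern known.

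The form of these TRBV1 chains differed between the libraries. In KO and WT anti-4-1BB of experiment 2, 727 of 815 cells had a CDR3 of 14 amino acids, and 689 of these kept the full TRBJ2-4 end, as in the sequence above that was found in 4 libraries. In the other 6 libraries, 137 of 308 cells had that length, and 84 of these kept the full end. By library, that length was held by 475 of 526, 12 of 25, 252 of 289 and 33 of 77 cells with anti-4-1BB. With IgG it was held by 30 of 60, 8 of 22, 31 of 75 and 23 of 49 cells. These counts are of cells, so a large clonotype weighs by its size. All 1123 cells held 393 distinct nucleotide sequences. The 5 commonest amino acid sequences made up 609 cells and were encoded by 60 nucleotide sequences, each amino acid sequence by at least 5. Of the 6 sequences with most cells summed over the libraries, the 5 not printed above are shown so that the bases between V and J can be compared, which is where they differ. The fifth in size is the 44-cell sequence given above:
TRBV1-TRBJ2-4, 113 cells: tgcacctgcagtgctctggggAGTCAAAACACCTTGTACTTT
TRBV1-TRBJ2-4, 62 cells: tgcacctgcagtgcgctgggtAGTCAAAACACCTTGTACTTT
TRBV1-TRBJ2-4, 59 cells: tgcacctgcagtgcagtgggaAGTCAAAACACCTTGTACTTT
TRBV1-TRBJ2-4, 54 cells: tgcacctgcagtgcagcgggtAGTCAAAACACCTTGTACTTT
TRBV1-TRBJ2-4, 37 cells: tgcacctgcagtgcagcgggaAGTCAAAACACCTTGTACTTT
The first 2 were seen in KO anti-4-1BB cells of experiment 2 only. The third had 58 cells in that library and 1 in KO anti-4-1BB of experiment 1. The fourth had 27 cells in KO and 27 in WT anti-4-1BB cells of experiment 2, and the last had 6 and 31 cells in the same 2 libraries.

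Their TRA partners also differed between the libraries. TRAJ30, an alpha J segment, was carried by 515 of 758 TRBV1-TRBJ2-4 cells with a TRA chain, and by 121 of 3637 other TRBJ2-4 cells. By library it was 320 of 374, 4 of 16, 142 of 192 and 8 of 53 cells with anti-4-1BB, against 20 of 43, 3 of 14, 11 of 42 and 7 of 24 cells with IgG. Of the 515 cells, 510 had TRAV13-1, TRAV13D-1 or TRAV13N-1, near-identical copies whose reads may be split between labels, and the 515 held 41 distinct alpha sequences. The TRAJ30 share was highest in the same 2 libraries that held most of the cells.

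Within KO, the TRBJ2-4 clonotype share differed by 0.21 ± 0.085 on the log2 scale between anti-4-1BB and IgG (edgeR adjusted p = 0.990), and within WT by 0.13 ± 0.079 (adjusted p = 0.960). No member and none of 153 segments (0% in each) was called within either genotype by edgeR, where 4 segments each had an unadjusted p under 0.05, or by DESeq2. Counted as cells, the difference within KO was 0.49 ± 0.13 (adjusted p = 0.0334; 2 of 155 segments, 1.29%, called). This was lost without KO anti-4-1BB of experiment 2 (0.24, adjusted p = 0.994), without KO IgG of experiment 1 (0.34, adjusted p = 0.997), without any 1 of the 4 WT libraries (adjusted p = 0.0591 to 0.324), with the replicate block (adjusted p = 0.0528) and with DESeq2 (adjusted p = 0.401). The difference between the 2 treatment effects was 0.08 ± 0.12 in clonotypes (edgeR adjusted p = 0.972), with 0% of segments called and 1 of 153 at an unadjusted p under 0.05. DESeq2 called none.

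KO was set against WT to ask whether J use differed between the genotypes. A Cre is given for KO only and Eomes-IRES-GFP for WT only, so these and loss of Eomes cannot be told apart. The 6 members differed by -0.05 to 0.03 on the log2 scale, all with an adjusted p of 0.972 in edgeR, and none was called, against 1 of 153 segments (0.654%) overall. None of the 6 had an unadjusted p under 0.05, and DESeq2 called none of 153. TRBJ2-7 made up 18.6%, 18.1%, 17.9% and 18.6% in KO libraries (anti-4-1BB of experiments 2 and 1, then IgG of experiments 2 and 1), against 19.0%, 18.5%, 18.3% and 19.9% in WT libraries. It was lower in KO in each of the 4 pairs of the same treatment and experiment. The mean difference was -0.638 percentage points (log2 difference -0.05 ± 0.053). An exact permutation test within pairs puts this at p = 0.13, the smallest p that 4 pairs allow. This was among 80 such tests and did not pass adjustment over them. The log2 difference was -0.0191 without WT IgG of experiment 1 and -0.0781 without WT IgG of experiment 2.

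Between the experiments, TRBJ2-3 averaged 10.4% ± 0.186 of clonotypes in experiment 2 and 9.59% ± 0.325 in experiment 1 (SD, n = 4 each). Its 2 ranges did not overlap, whereas those of each other TRBJ segment did. The ranges of the V segments and of the alpha J segments were not compared. TRBJ2-5 averaged 14.6% ± 0.448 and 13.6% ± 0.326, and TRBJ2-4 9.73% ± 0.559 and 10.3% ± 1.07, in experiments 2 and 1. The log2 differences were 0.12 ± 0.048 for TRBJ2-3 (edgeR adjusted p = 0.165), 0.11 ± 0.050 for TRBJ2-5 (adjusted p = 0.329) and -0.09 ± 0.048 for TRBJ2-4 (adjusted p = 0.430). None of 153 segments (0%) was called by edgeR, with 19 at an unadjusted p under 0.05, or by DESeq2, with 16. Leaving out KO IgG of experiment 1 brought TRBJ2-5 to an adjusted p of 0.0436.

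Expansion was measured as the percentage of a segment's cells in clonotypes of 2 or more cells, after thinning each library to 4090 cells. TRBJ2 cells averaged 30.2% ± 8.72, and TRBJ1 cells 27.2% ± 5.95 (SD, n = 8 libraries). TRBJ2 was higher in 6 of 8 libraries, by 2.998 percentage points (exact sign permutation test over 8 libraries, two-sided, p = 0.0625). By library, the TRBJ2 share was 35.0%, 24.9%, 47.0% and 17.4% with anti-4-1BB, against 28.1%, 34.2%, 27.8% and 26.9% with IgG. The anti-4-1BB libraries held both the highest and the lowest value. The mean difference was 1.79 ± 13.9 percentage points (SD over 4 pairs), with p = 0.875 in an exact permutation test within pairs. It was 13.0 in experiment 2 and -9.42 in experiment 1, so that the direction was opposite in the 2 experiments. The TRBJ1 share was 31.3%, 25.5%, 39.4% and 20.6% with anti-4-1BB, against 27.1%, 27.3%, 24.4% and 21.9% with IgG. TRBJ1 cells thus moved in the same directions, and the pattern was not particular to TRBJ2.

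TRBJ2-4 had the widest range, with 54.0%, 19.9%, 59.8% and 16.4% of its cells in expanded clonotypes with anti-4-1BB, against 32.3%, 22.7%, 31.3% and 26.0% with IgG. Its mean of 32.8% ± 15.9 was 4.07 percentage points above the other TRBJ segments, higher in 5 of 8 libraries (exact sign permutation, adjusted p = 0.643 over 12 TRBJ segments). That difference was 1.30 points without KO anti-4-1BB of experiment 2, 2.22 without WT anti-4-1BB of experiment 2 and 6.12 without KO IgG of experiment 1. Without TRBV1 it was 30.3% ± 10.9, and the KO and WT anti-4-1BB libraries of experiment 2 still held 37.7% and 51.3%. TRBJ2-7 was at 31.3% ± 8.23, 2.43 points above the other segments and higher in 7 of 8 libraries (exact sign permutation p = 0.0391, adjusted p = 0.234). The other 4 members differed from the remaining segments by -2.19 to 0.58 points.

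**Figure D3:**
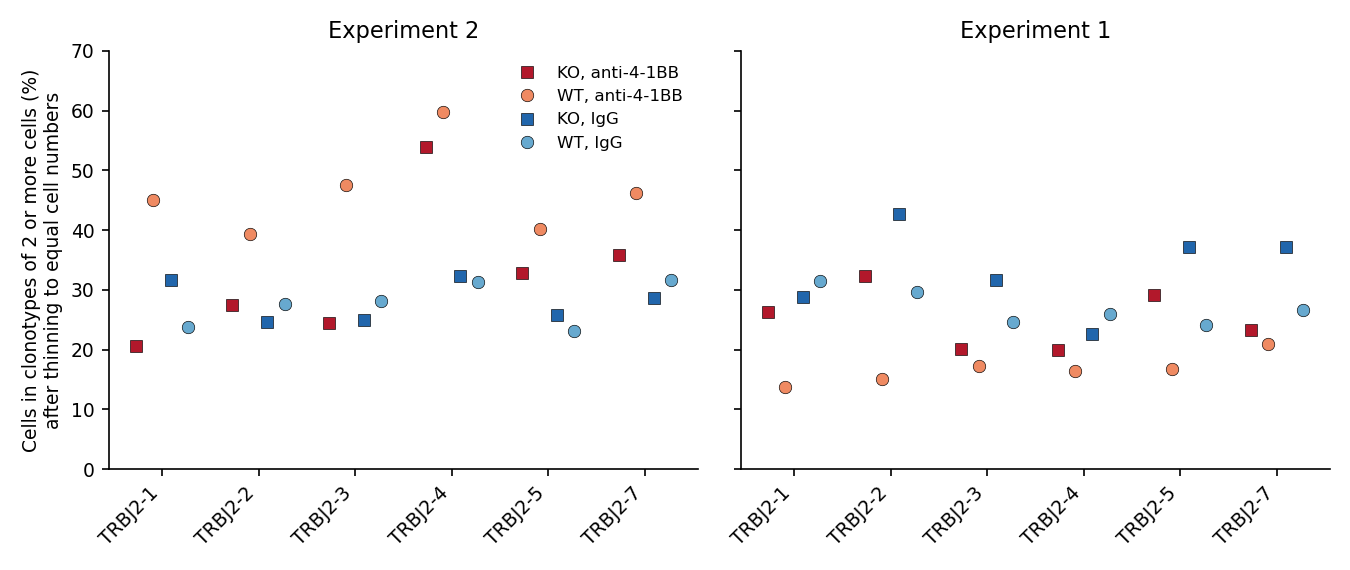
Percentage of each TRBJ2 segment's cells in clonotypes of 2 or more cells after thinning to 4090 cells, in experiment 2 (left) and experiment 1 (right), 1 point per library. In experiment 2, TRBJ2-4 of KO and WT anti-4-1BB stood highest at 54.0% and 59.8%, whereas in experiment 1 WT anti-4-1BB was lowest for each segment.

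Large clonotypes are given next by library. Unlike the expanded share, they were counted without thinning, in libraries of 4090 to 12669 cells. Reaching a given size therefore also depends on the number of cells in a library. Of 4855 TRBJ2-4 clonotypes, 60 had 10 or more cells, 34 of them in the 2 anti-4-1BB libraries of experiment 2, 5 in those of experiment 1 and 21 in the 4 IgG libraries. TRBJ2-7 had 69 of 8964, TRBJ2-5 38 of 6796, TRBJ2-3 28 of 4796, TRBJ2-2 28 of 3184, TRBJ2-1 24 of 4880, and the TRBJ1 segments 86 of 14719. In the 2 anti-4-1BB libraries of experiment 2 were 28 of the 69 of TRBJ2-7, 18 of the 38 of TRBJ2-5 and 15 of the 28 of TRBJ2-3. The same 2 libraries held 10 of the 28 of TRBJ2-2, 9 of the 24 of TRBJ2-1 and 32 of the 86 of TRBJ1. At 50 or more cells there were 7 TRBJ2-4, 5 TRBJ2-7, 3 TRBJ2-1 and 1 TRBJ2-5 clonotypes, and all 7 of TRBJ2-4 and all 5 of TRBJ2-7 were in anti-4-1BB libraries of experiment 2. The same held for the TRBJ2-5 clonotype, for 2 of the 3 of TRBJ2-1, the other being in an IgG library, and for all 4 of that size among the TRBJ1 segments. The largest clonotype of each member was in WT anti-4-1BB cells of experiment 2. Those of over 100 cells are shown:
TRBJ2-4 with TRBV31, 136 cells: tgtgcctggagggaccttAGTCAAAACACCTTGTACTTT
TRBJ2-7 with TRBV23, 116 cells: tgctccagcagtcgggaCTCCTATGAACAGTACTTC
The largest of TRBJ2-1 (TRBV31) had 81 cells, of TRBJ2-5 (TRBV31) 50, of TRBJ2-3 (TRBV31) 45 and of TRBJ2-2 (TRBV15) 37.

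TRA chains show how far such a TRB clonotype is 1 clone. A TRA chain was found in 49.2%, 64.4%, 47.5% and 69.1% of TRBJ2 cells with anti-4-1BB, against 59.5%, 61.5%, 53.6% and 52.3% with IgG. Among TRBJ2 clonotypes of 10 or more cells with a TRA chain in at least 5 of them, 153 of 189 had the same TRA CDR3 in over 75% of those cells, and the median was 90.9%. The 81-cell TRBJ2-1 clonotype had a TRA chain in 3 cells only, and the 3 differed. The 113-cell TRBV1-TRBJ2-4 clonotype held 10 distinct TRA chains in 77 cells with a TRA chain. The TRBV31 with TRBJ2-4 sequence, with 138 cells over 2 libraries, held 7 in 48. The 116-cell TRBJ2-7 clonotype held 4 in 18. These large TRB clonotypes are therefore not shown to be single clones.

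CDR3 beta length differed between the segments in nearly every library. TRBJ2 clonotypes averaged 13.8 amino acids, and TRBJ1 clonotypes 13.6, with TRBJ2 longer by 0.181 in 8 of 8 libraries (exact sign permutation p = 0.00781, the smallest that 8 libraries allow). Among the members, TRBJ2-2 was the longest at 14.5 ± 0.0924, and TRBJ2-7 the shortest at 13.2 ± 0.0833 (SD, n = 8). Against the other TRBJ segments, TRBJ2-2 was longer by 0.755, TRBJ2-3 by 0.522 and TRBJ2-1 by 0.398 amino acids, each in 8 of 8 libraries, and TRBJ2-7 was shorter in 8 of 8, with a difference of -0.667 (adjusted p = 0.00938 for each, exact sign permutation over 12 segments). TRBJ2-4 was longer by 0.147 in 7 of 8 (adjusted p = 0.0170), and by 0.138 without TRBV1 (adjusted p = 0.0188). TRBJ2-5 differed by -0.0311 (adjusted p = 0.0625). Such differences were not particular to the members. Each of the 6 TRBJ1 segments also differed in 1 direction in 8 of 8 libraries (adjusted p = 0.00938 for each, same test). TRBJ1-1, at 13.1, was shorter than TRBJ2-7. The commonest length was 14 amino acids: 31.2% of TRBJ2 clonotypes had it, 21.9% had 13 and 20.5% had 15.

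By CDR3 length and by the number of bases kept from the J end shown above, the segments stood in the same order except for TRBJ2-1 and TRBJ2-4. The mean number kept was 20.7 in TRBJ2-2, 19.4 in TRBJ2-3, 18.5 in TRBJ2-4, 18.5 in TRBJ2-1, 17.7 in TRBJ2-5 and 15.3 in TRBJ2-7. The mean number of CDR3 bases before J ran the other way at its ends, with 22.7 in TRBJ2-2 and 24.3 in TRBJ2-7. The mean loss was 1.60 bases in TRBJ2-3, 2.30 in TRBJ2-2, 2.45 in TRBJ2-4, 3.25 in TRBJ2-5, 3.50 in TRBJ2-1 and 3.70 in TRBJ2-7. TRBJ2-3 kept its whole end in 43.9% ± 2.46 of clonotypes and TRBJ2-1 in 11.3% ± 0.791. TRBJ2-4 kept it in 36.4% ± 2.05, which was 51.9% ± 7.11 with TRBV1 and 34.8% ± 2.33 without it. An added base that matches the J end by chance is counted here as kept.

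With anti-4-1BB, TRBJ2 CDR3s averaged 13.73, 13.79, 13.74 and 13.80 amino acids, against 13.82, 13.91, 13.84 and 13.79 with IgG. Only WT of experiment 1 was not shorter, and the mean difference was -0.0737 ± 0.0569 (exact permutation within pairs, p = 0.25). TRBJ2-5 was the only member shorter in all 4 pairs, with a difference of -0.101 amino acids (13.67 with anti-4-1BB and 13.77 with IgG). The same exact test gave p = 0.13, the smallest it allows. This too was among 80 such tests and did not pass adjustment over them. Between KO and WT the TRBJ2 mean differed by 0.0226 ± 0.0629 amino acids (exact permutation p = 1).

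**Figure D4:**
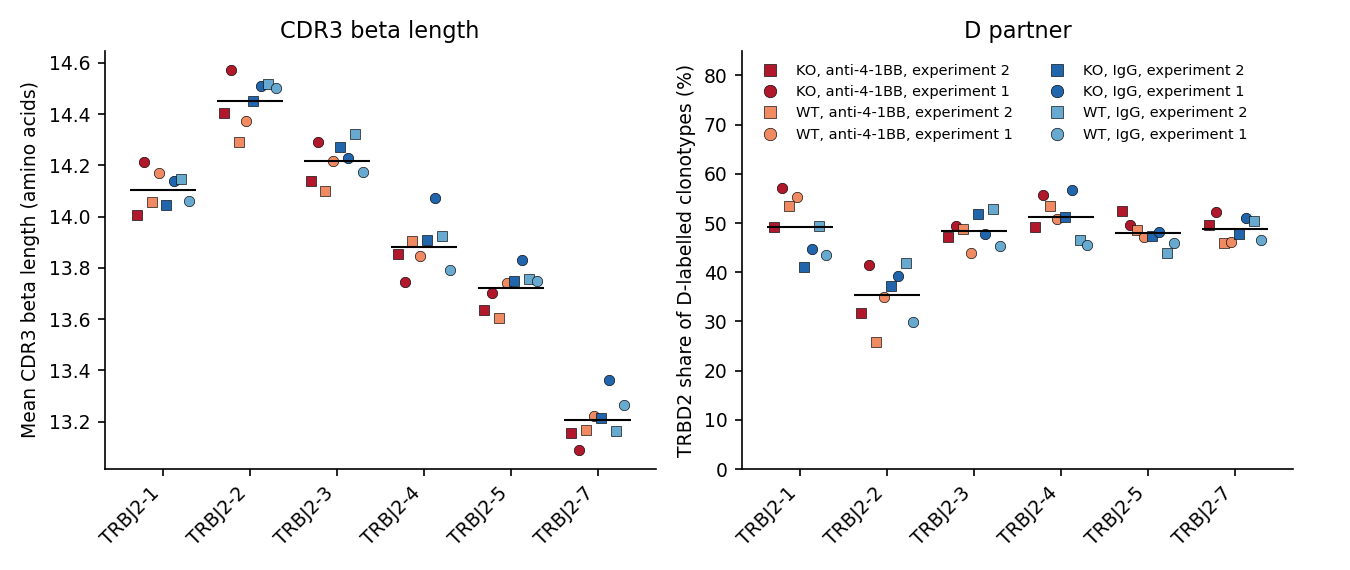
Mean CDR3 beta length in amino acids (left) and TRBD2 as a percentage of D-labelled clonotypes (right) for each TRBJ2 segment, 1 point per library, with the mean of 8 libraries as a line. TRBJ2-2 stands out in both, with the longest CDR3s (14.5) and the lowest TRBD2 share (35.3%).

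A D label was given for 23.0% ± 0.761 of TRBJ2 clonotypes, the rest having no D call, so the D results rest on the clonotypes with a call. Of the labelled ones, 3656 had TRBD2 and 4044 had TRBD1, so both D segments partnered TRBJ2. Of 2690 labelled TRBJ1 clonotypes, 41 (1.52%) were labelled TRBD2. TRBJ2-2 had the lowest TRBD2 share, with 31.8%, 41.5%, 25.9% and 34.9% in anti-4-1BB libraries, against 37.3%, 39.2%, 42.0% and 29.9% in IgG libraries. Its mean of 35.3% was 13.6 percentage points below that of the other members, lower in 8 of 8 libraries (exact sign permutation p = 0.00781, adjusted p = 0.0469 over 6 segments). It rested on 224 clonotypes with TRBD2 and 412 with TRBD1. With 1 library left out the smallest p doubles, and the adjusted p was then 0.0469 to 0.0938. TRBJ2-4 had 51.2%, 3.82 points above the others in 7 of 8 libraries (adjusted p = 0.0938). Without TRBV1 it had 51.9%, 4.15 points above (adjusted p = 0.0469). The other 4 members had 47.9% to 49.2%.

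By treatment, the TRBD2 share of TRBJ2-1 was 49.1%, 57.1%, 53.4% and 55.3% with anti-4-1BB, against 41.1%, 44.7%, 49.4% and 43.6% with IgG. It was higher with anti-4-1BB in 4 of 4 pairs, by 9.02 percentage points (exact permutation within pairs p = 0.13, the smallest it allows; adjusted p = 1 over 80 such tests). TRBJ2-5 was also higher in 4 of 4 pairs, by 3.08 points, at the same p. Between KO and WT, the TRBD2 share of TRBJ2-5 was higher in KO in 4 of 4 pairs, at 49.4% in KO and 46.4% in WT, a difference of 3.04 points with the same exact and adjusted p. The other 5 members differed by -2.40 to 4.29 points, and none of them in 1 direction in all 4 pairs.

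V partners were compared by the share of each TRBV label among a segment's clonotypes against its share among all other TRBJ clonotypes of the same libraries. Of 120 TRBV-TRBJ2 pairs tested, 31 (25.8%) were called (16 higher and 15 lower; edgeR with library as a term, adjusted p under 0.05). Over all 205 TRBV-TRBJ pairs, 65 (31.7%) were called, 17.6% higher and 14.1% lower. Of the 85 pairs with a TRBJ1 segment, 34 (40.0%) were called, so the share called was lower among the TRBJ2 pairs, a difference that was not tested. TRBJ2-5 had 12 of 21 pairs called, TRBJ2-4 5 of 19, TRBJ2-3 4 of 21, TRBJ2-7 4 of 21, TRBJ2-1 3 of 21 and TRBJ2-2 3 of 17.

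TRBJ2-5 was joined more often to TRBV5, TRBV23 and TRBV14 and less often to TRBV15, TRBV19 and TRBV13-2. TRBV5 made up 7.75% of TRBJ2-5 clonotypes and 4.70% of other clonotypes (log2 difference 0.68 ± 0.088, higher in 8 of 8 libraries, edgeR adjusted p = 1.78e-10). TRBV23 (0.69) was higher in 8 of 8 and TRBV14 (0.56) in 7 of 8. TRBV15 (-0.47) and TRBV19 (-0.48) were lower in 8 of 8. TRBV13-2 was lower as labelled (-0.53), but the files also hold a joined label, TRBV12-2+TRBV13-2, and with both counted as 1 it was higher and not called (0.13, adjusted p = 0.124), so this pair is uncertain.

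TRBJ2-7 held more TRBV15 (7.07% against 4.95% of other clonotypes; 0.50 ± 0.088, 8 of 8 libraries, edgeR adjusted p = 3.82e-06) and less TRBV31 (7.54% against 9.26%; -0.32 ± 0.063, adjusted p = 3.08e-05). It also held more TRBV16 (0.24) and less TRBV13-2 (-0.39, or -0.07 with the joined label, adjusted p = 0.188). TRBJ2-4 held less TRBV31 (6.79% against 9.18%, -0.45 ± 0.11, lower in 8 of 8, edgeR adjusted p = 0.00285), TRBV15 (-0.33) and TRBV20 (-0.31). It held more TRBV10 (0.39, 8 of 8) and TRBV1 (8.62% against 6.14%, 0.48 ± 0.12, higher in 7 of 8, edgeR adjusted p = 0.00460). The TRBJ2-4 with TRBV1 pair was chosen with its pattern known, so its values, the adjusted p among them, are a description.

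TRBJ2-3 held more TRBV31 (10.9% against 8.71%; 0.35 ± 0.082, 8 of 8, edgeR adjusted p = 0.00177) and TRBV19 (0.36, 8 of 8), and less TRBV1 (-0.36) and TRBV12-2+TRBV13-2 (-0.31). TRBJ2-1 held more TRBV19 (5.83% against 3.67%; 0.61 ± 0.099, 8 of 8, adjusted p = 0.000487) and TRBV17 (0.59), and less TRBV26 (-0.23). TRBJ2-2 held less TRBV12-1 (1.56% against 2.65%; -0.72 ± 0.18, adjusted p = 0.00448) and more TRBV13-1 (0.28) and TRBV15 (0.32). Calls that rested on single libraries were TRBV12-2+TRBV13-2 with TRBJ2-3, lost without KO anti-4-1BB of experiment 2, and TRBV17 with TRBJ2-1, lost without KO IgG of experiment 2 or WT IgG of experiment 1. TRBV1 with TRBJ2-3 was lost without WT anti-4-1BB of experiment 2 or 1 or KO IgG of experiment 2, and TRBV13-1 with TRBJ2-2 without WT anti-4-1BB of experiment 2 or either WT IgG library. TRBV26 with TRBJ2-1, TRBV15 with TRBJ2-2 and with TRBJ2-4, TRBV20 with TRBJ2-4, and TRBV13-2 and TRBV16 with TRBJ2-7 were lost in 5 or more of the 8 fits that left out 1 library. TRBV15, TRBV19, TRBV31 and TRBV1 were each called in opposite directions with different members.

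**Figure D5:**
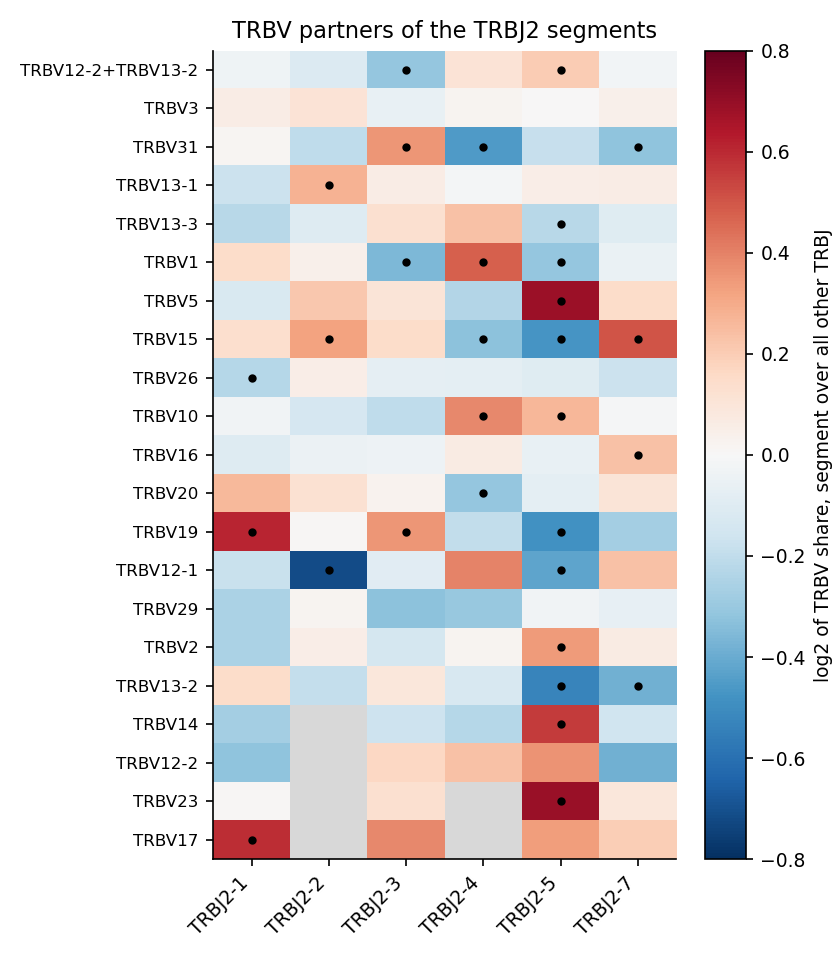
Log2 of the TRBV share among each TRBJ2 segment's clonotypes over its share among all other TRBJ clonotypes, with red for higher and blue for lower, a dot for an adjusted p under 0.05 and grey for pairs not tested. TRBJ2-5 has the most dots (12), and the TRBV15, TRBV19 and TRBV31 rows hold both colours with dots.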

How the data were processed

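Single-cell T cell receptor libraries of 8 samples were analysed; the gene expression libraries of the same cells were not analysed here. Per the submitters' processing notes, reads were processed with bcl2fastq 2.20.0 and Cell Ranger 7.1.0 on GRCm38; Seurat is also named. The V(D)J reference is not given in the sources used here. The authors' deposited tables give, per the file headers, 1 row per contig with its V, D, J and C labels, CDR3 and counts of reads and UMIs. All 123611 contigs were marked as in a cell, high confidence, full length and productive. The 4077 cells with 2 TRB chains, which can be doublets or single cells with both alleles rearranged, were left out. No other doublet filter was applied, and 0 columns of other samples were present.

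Clonotypes (or cells) per segment were counted here and tested with edgeR 4.0.16 in R 4.3.3 by quasi-likelihood. Each segment type had 1 fit over all 8 libraries, for segments with at least 10 clonotypes in at least 2 libraries. The treatment and genotype fits used 4 group means and no experiment term. They therefore left out the pairing of libraries by experiment, which only the replicate block below takes in. The comparison of experiments added an experiment term. The difference of treatment effects between experiments was fitted with a mean for each experiment and treatment, with KO and WT libraries as replicates. P-values were adjusted by Benjamini-Hochberg over 153 segments, and for V-J pairs over 205. Expanded share, CDR3 length and D use were compared over libraries with exact two-sided sign permutations (256 patterns, smallest p = 0.00781) or within the 4 pairs of genotype and experiment (16 arrangements, smallest p = 0.125). Alternatives were DESeq2 1.42.0, TMM factors, no filter, cells in place of clonotypes, clonotypes by both chains or without the V label, at least 3 UMIs per contig, no thinning, a replicate block and each library left out in turn. Nothing states how many mice the libraries held, so p-values measure the spread between these samples only.

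The cluster, the TRBJ2-4 with TRBV1 pair and the lists were chosen with earlier results of these data known, although the segments are picked by label. Named V partners were at most 3 per side and segment with the smallest p among called pairs; shown sequences were those in most libraries (ties by cells), while those of the largest clonotypes were chosen after their values were seen. The experiment numbers are batches in the labels and pair the libraries; deviations of same-numbered libraries from their group means correlated at -0.102 to 0.424 over 153 segments.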

Additional observations from a re-analysis of the deposited data

Results flagged for a closer look

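In several results, both genotypes moved one way with anti-4-1BB in experiment 2 and the other way in experiment 1. For the expanded share, TRBJ1 cells did so too, as given above, so that pattern was not particular to TRBJ2. The expanded share of TRBJ2 cells differed between anti-4-1BB and IgG by 13.0 percentage points in experiment 2 and by -9.42 in experiment 1, a gap of 22.4. For TRBJ2-4 the differences were 25.1 and -6.18 (gap 31.3), for TRBJ2-7 10.8 and -9.74 (gap 20.6), for TRBJ2-2 7.29 and -12.5 (gap 19.8) and for TRBJ2-5 12.1 and -7.60 (gap 19.7).

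The clonotype share of TRBJ2-7 differed by 0.722 percentage points in experiment 2 and -0.908 in experiment 1, a gap of 1.63. EdgeR's test of the difference of treatment effects, with KO and WT libraries as the replicates, gave an adjusted p of 0.349. In that test edgeR called none of 153 segments (0%), with 32 at an unadjusted p under 0.05 and none of them TRBJ2, and DESeq2 called 2, neither of them TRBJ2. Mean CDR3 beta length differed by -0.0627 and 0.0938 amino acids for TRBJ2-1 (gap -0.156) and by -0.179 and 0.0551 for TRBJ2-3 (gap -0.234) in experiments 2 and 1. The TRBD2 share of TRBJ2-2 differed by -10.8 and 3.65 percentage points (gap -14.5). Apart from the TRBJ2-7 share, these differences between experiments were not tested. Each rests on 2 libraries per treatment and experiment, and Cre form, tamoxifen and experiment cannot be told apart.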

How the results depend on the processing

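No TRBJ2 segment was called between anti-4-1BB and IgG, between KO and WT or between experiments under any alternative in clonotypes, except TRBJ2-5 between experiments without KO IgG of experiment 1 (0 to 1 called as each library was left out). Counted as cells, 1 member was called with anti-4-1BB and 1 within KO, TRBJ2-4 both times. With each library left out in turn (a set of fits chosen after seeing the data for cells), its cell-based log2 difference was 0.25 to 0.47 and, within KO, 0.24 to 0.68. With the experiment as a replicate block, the TRBJ2-4 clonotype difference was 0.16 (adjusted p = 0.102), and the cell-based one 0.37 (adjusted p = 0.0413). The block changed no call in clonotypes.

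Differences near 0 changed sign. With TMM factors and with DESeq2, the treatment differences became 0.0224 and 0.0174 for TRBJ2-1, 0.0139 and 0.00919 for TRBJ2-3, 0.0316 and 0.0234 for TRBJ2-5 and 0.0276 and 0.0203 for TRBJ2-7. TRBJ2-5 was at 0.00725 with the replicate block, and TRBJ2-7 at 0.00168 with clonotypes defined by both chains. With 1 library left out they ranged over -0.0448 to 0.0318 for TRBJ2-1, -0.0644 to 0.0289 for TRBJ2-3, -0.0423 to 0.0371 for TRBJ2-5 and -0.0329 to 0.0261 for TRBJ2-7. TRBJ2-4 between KO and WT was at 0.0233 with both chains, 0.00256 with the block and -0.0587 to 0.0309 with 1 library left out. Its difference of treatment effects between genotypes ranged over -0.0112 to 0.168. Between experiments, TRBJ2-4 was at 0.25 counted as cells. Its difference of treatment effects between experiments was 0.29 counted as cells, 0.0375 with both chains and -0.189 to 0.0255 with 1 library left out.

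The count of called TRBV-TRBJ2 pairs was 20 with DESeq2, 10 counted as cells, 16 with both chains and 21 to 32 with 1 library left out. Counted as cells, the named pairs that stayed called were TRBV19 with TRBJ2-1, TRBV1 with TRBJ2-3, TRBV5, TRBV14, TRBV15, TRBV19 and TRBV13-2 with TRBJ2-5 and TRBV15 and TRBV31 with TRBJ2-7. TRBV13-2 with TRBJ2-5 was at 0.13 with the joined label merged, an alternative chosen after seeing the data. The CDR3 length difference of TRBJ2-5 was 0.0106 counted as cells. The number of segments called for TRBD2 share was 2 with both chains, 2 without TRBV1 and 0 to 2 with 1 library left out. The treatment difference in TRBJ2 expanded share was -3.99 to 5.54 points, the lowest without WT anti-4-1BB or WT IgG of experiment 2. The cause of these changes was not tested. The D results rest on the 23.0% of clonotypes with a D label, and the link of that share to depth was not tested.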
